A study of Mus musculus with 6 samples.

Results

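The classic oncofetal targets of let-7 are a set of growth genes that are active in early embryos, are switched off as tissues mature and return in many tumours. The set named here held 10 mouse genes: Lin28a, Lin28b, Hmga1, Hmga2, Igf2bp1, Igf2bp2, Igf2bp3, Trim71, Arid3a and Arid3b. They were chosen by name, and each was read from the probesets that the platform's annotation gives to exactly 1 gene symbol, taking the brightest probeset of a gene by its mean over 6 arrays. Of the 10 genes, 7 had such a probeset, out of 22180 genes with one in all. Igf2bp1 is annotated only on a probeset that carries a second symbol, and Hmga1 and Igf2bp2 are not analysed here.

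RNA levels were read with 6 Mouse Gene ST arrays, and 10 blastocysts of let7g-transgenic mice supplied the RNA of each. There were 3 groups of 2 arrays. D4-act-7g was the activated state of day 4, Dor-7g was the dormant state reached inside the mother and taken on day 7, and DOX-7g was a dormant state induced by DOX outside the mother, also taken on day 7. All 3 groups carry the transgene, including the day 4 reference. The labels do not give the transgene's promoter, the cells in which it is active, or whether the D4-act-7g and Dor-7g embryos met DOX. Between DOX-7g and day 4 the effects of age, culture, DOX and let-7 cannot be told apart, and between Dor-7g and day 4 those of age and dormancy cannot either. Nor can those of culture, DOX and let-7 between DOX-7g and Dor-7g. The labels number the replicates but name no separate animals or embryo pools behind them, and the p-values therefore cover only the spread between these arrays, which may be technical. Each array pooled whole embryos, so fewer cells of a type and less RNA per cell cannot be told apart.

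let-7 is a microRNA family that pairs with messenger RNAs through its seed, the bases near its 5′ end, and lowers the stability and translation of those messages. In mammals LIN28A and LIN28B bind the let-7 precursor and block its maturation, while let-7 represses Lin28a and Lin28b in turn, so that each side holds the other down. The other members are described as let-7 targets that carry growth in embryos: HMGA proteins shape chromatin, IGF2BP proteins protect and place messenger RNAs, TRIM71 represses messenger RNAs in stem cells, and ARID3 proteins bind DNA. Repression by a microRNA can act on translation as well as on RNA level, and an array measures RNA only.

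The mature sequences below show the letters with which let-7 reads its targets. They come from RefSeq on build GRCm38.p6, run 5′ to 3′, and carry the seed, bases 2 to 8, in capitals. let-7g, the family member named in the transgene, is encoded on the plus strand at chr9:106178846-106178867.
let-7g-5p: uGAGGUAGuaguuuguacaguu
let-7a-5p: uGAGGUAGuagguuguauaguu
let-7d-5p: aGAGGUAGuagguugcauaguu
miR-98-5p: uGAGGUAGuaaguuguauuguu
All 9 mature 5p sequences of the mouse family in the table shared this seed, whose reverse complement in a target is CUACCUC. Outside the seed, let-7a differed from let-7g at 2 of 22 positions, and let-7d and miR-98 at 4 each.

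The precursor of let-7g shows the letters that LIN28 is known to touch. Its hairpin, on the plus strand of chromosome 9 (chr9:106178840-106178927), is printed with GGAG in capitals, the tetranucleotide bound by the zinc knuckles of LIN28.
Mirlet7g hairpin: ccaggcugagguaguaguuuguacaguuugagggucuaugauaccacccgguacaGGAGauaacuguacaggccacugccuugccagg
Read on the RNA strand only, GGAG lay between the arms in 9 of 12 let-7 family hairpins and was absent from those of Mirlet7b, Mirlet7c-2 and Mir98. Of all 1005 mouse hairpins in the table, 447 (44.5%) held these letters somewhere, so a match alone is common.

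Most markers of the blastocyst's lineages were read. Above the olfactory line defined below on all arrays were 6 of 9 trophectoderm markers, 5 of 8 epiblast markers, with Sox2 and Esrrb below it throughout, and 6 of 7 primitive endoderm markers, with Pdgfra below it throughout. Krt18, a trophectoderm keratin, stood at 12.81 to 13.37 log2 units on the 6 arrays, and Gata6, of the primitive endoderm, at 6.43 to 7.19. Pou5f1, of the pluripotent cells, read only 5.83 to 6.13. A level was called dim below the array's median, which lay between 4.62 and 4.87. As a stricter line, chosen after the data were seen, the 95th percentile of 1091 olfactory receptor probesets was taken on each array, at 5.01 to 5.62, because those genes are thought to be silent outside the nose and a few other tissues. Dor-7g replicate 1 stood apart, with the highest median and the highest olfactory line, and its Pearson's r with the other arrays lay between 0.899 and 0.919 across probesets. Of the blood and immune markers, 1 of 7 measured was above the olfactory line on all arrays, the log2 values of the list summed to 32.4 to 35.2 on day 4, 35.6 to 40.6 in Dor-7g and 49.0 to 49.8 in DOX-7g, and Ptprc, which marks all white blood cells, was below the line on every array. Some others of the list were far higher in DOX-7g. S100a9, a calcium-binding protein of neutrophils, rose by 5.00 ± 0.26 log2 units over day 4 (SE; limma, adjusted p = 0.00112) and by 2.79 ± 0.26 over Dor-7g (limma, adjusted p = 0.00988). Ly6g, a neutrophil surface marker, rose by 3.54 ± 0.25 (limma, adjusted p = 0.00434) and 3.40 ± 0.25 (limma, adjusted p = 0.00422). Ly6g was dim on the day 4 and Dor-7g arrays, and only the DOX-7g arrays (7.41 and 7.39) made it testable. Cd68 went the other way, by -1.55 ± 0.80 against day 4 (limma, adjusted p = 0.594) and -0.90 ± 0.80 against Dor-7g (limma, adjusted p = 0.660). Lyz2 and Cd3e differed from day 4 by 0.80 ± 0.34 and 0.35 ± 0.31 (limma, adjusted p = 0.472 and 0.827). S100a8, the partner of S100a9, had means of 3.22 on day 4, 5.00 in Dor-7g and 10.52 in DOX-7g and did not pass (DOX-7g against day 4, 7.30 ± 1.31; limma, adjusted p = 0.0949). Its Dor-7g arrays read 2.81 and 7.18, so that mean describes neither of them. In Dor-7g against day 4, S100a9 alone of 6 tested markers passed, at 2.21 ± 0.26 (limma, adjusted p = 0.0274), beside 0.984% of all genes tested. Differences above 0 were seen for 5 of 6, where the median of all genes was itself 0.06. Those 5 include Ly6g, dim on all arrays compared, and S100a8, whose Dor-7g arrays lay far apart. Of the uterine epithelium markers 4 of 8 were above the line on all arrays, with sums of 48.7 to 49.1, 52.3 to 53.4 and 52.9 to 53.2, and Ltf and Sprr2f were below it throughout. Of the uterine stroma markers 1 of 9 was above it, with sums of 42.4 to 43.3, 46.0 to 51.5 and 43.4 to 44.8, and Hand2, Hoxa10 and Pgr were below it throughout. The part of these cells in the results below was not tested.

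None of the oncofetal targets that could be tested passed the threshold in any comparison. The test was limma over 14020 genes, with p-values adjusted over all of them and a threshold of 0.05. Igf2bp3 had the widest differences, with nearly equal means in both dormant groups below that of day 4. The remaining tested members, Lin28a, Hmga2, Trim71, Arid3a and Arid3b, differed between any pair of groups by 0.40 log2 units or less. Lin28b was dim on all 6 arrays and was not tested. No difference among the 6 tested members reached 1 log2 unit in size, a size reached by 8.82% of all genes tested between Dor-7g and D4-act-7g, 5.96% between DOX-7g and D4-act-7g and 7.18% between DOX-7g and Dor-7g.

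**Figure D1:**
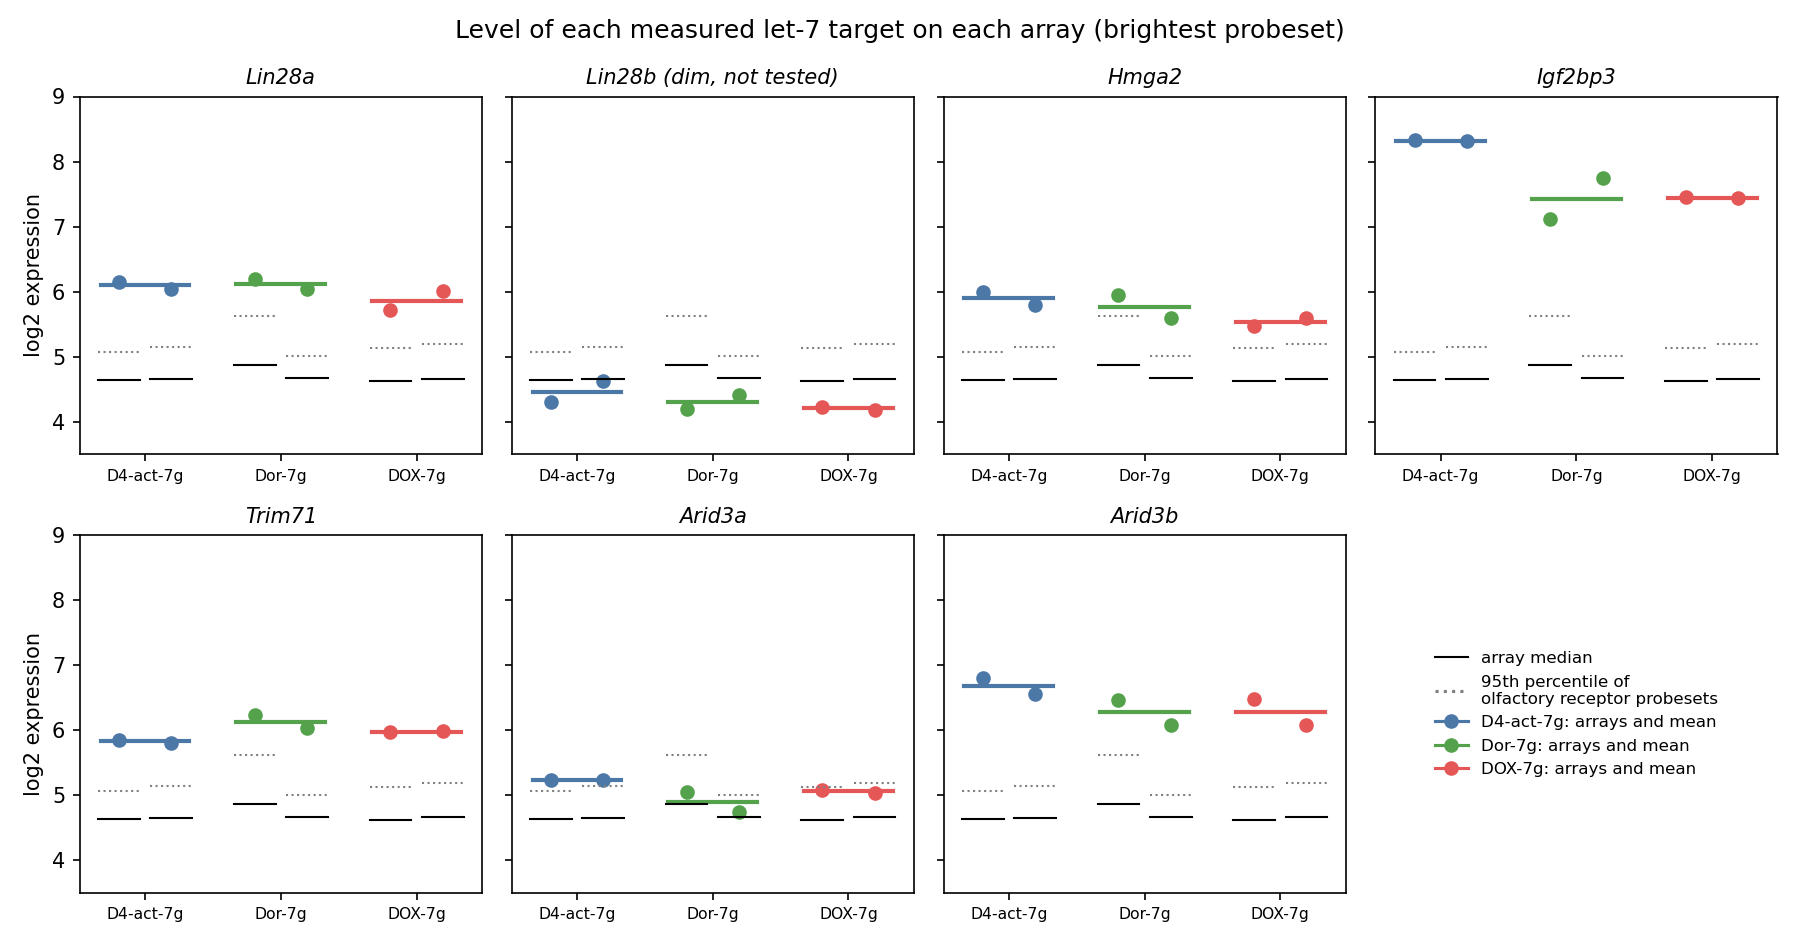
Log2 expression (vertical axis) of the 7 measured targets on each of the 6 arrays, with points for arrays, coloured bars for group means, black lines for each array's median and dotted lines for the 95th percentile of olfactory receptor probesets. Igf2bp3 stood at 8.33 and 8.31 in D4-act-7g and between 7.11 and 7.75 on the dormant arrays, while Lin28b lay below the median on every array.

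Of the LIN28 genes, the inhibitors of let-7 maturation, Lin28a lay above and Lin28b below the array medians. Lin28a stood at 6.15 and 6.04 log2 units on the D4-act-7g arrays, 6.19 and 6.04 on the Dor-7g arrays and 5.71 and 6.01 on the DOX-7g arrays. The D4-act-7g and Dor-7g arrays overlapped, and the DOX-7g arrays lay just below both groups. Lin28a exceeded the olfactory line on all 6 arrays. Its difference from D4-act-7g was 0.02 ± 0.19 in Dor-7g (SE; limma, adjusted p = 0.972) and -0.23 ± 0.19 in DOX-7g (limma, adjusted p = 0.801). The 95% confidence interval of the second, -0.71 to 0.24, runs from 1.63-fold lower to 1.18-fold higher RNA in DOX-7g. The sign for Dor-7g was not settled, since it was -0.11 with each array centred on its median, -0.06 without Dor-7g replicate 1 and -0.04 without D4-act-7g replicate 2. Lin28b, the second gene of the pair, stood at 4.30 and 4.62 on the day 4 arrays, 4.20 and 4.41 in Dor-7g and 4.23 and 4.18 in DOX-7g. All of these values lay below the array medians. With no filter on dim genes its differences from D4-act-7g were -0.16 ± 0.19 in Dor-7g and -0.25 ± 0.19 in DOX-7g (SE; limma, adjusted p = 0.757 and 0.881).

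Hmga2 encodes a small chromatin protein whose AT-hooks grip the minor groove of DNA, and its loss makes pygmy mice. It stood at 6.0 and 5.80 log2 units on the day 4 arrays, 5.95 and 5.59 in Dor-7g and 5.47 and 5.59 in DOX-7g. Both DOX-7g arrays lay below both D4-act-7g arrays, whereas the Dor-7g arrays overlapped with D4-act-7g. The differences from D4-act-7g were -0.13 ± 0.20 in Dor-7g (SE; limma, adjusted p = 0.788) and -0.37 ± 0.20 in DOX-7g (limma, adjusted p = 0.630). The DOX-7g interval of -0.87 to 0.13 reaches from 1.83-fold lower to 1.10-fold higher. Without Dor-7g replicate 2 the Dor-7g difference was 0.05. The platform also lists Hmga2-ps1, a pseudogene named for Hmga2, at 7.00 and 6.79 on the day 4 arrays, 8.86 and 8.77 in Dor-7g and 8.13 and 6.88 in DOX-7g. Whether transcripts of that copy reach the Hmga2 probeset was not tested. Tested over every probeset, it did not pass (Dor-7g against D4-act-7g, 1.92 ± 0.41, SE; limma, adjusted p = 0.224).

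Igf2bp3 encodes an RNA-binding protein that protects growth-related messages in embryos and tumours. On the D4-act-7g arrays it stood at 8.33 and 8.31 log2 units, on the Dor-7g arrays at 7.11 and 7.75 and on the DOX-7g arrays at 7.45 and 7.44. Every dormant array lay below both day 4 arrays, and the DOX-7g values lay between the widely spaced Dor-7g values. The group mean was 8.32 ± 0.01 on day 4, 7.43 ± 0.45 in Dor-7g and 7.44 ± 0.01 in DOX-7g (SD, n = 2 arrays each).

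Against D4-act-7g, Igf2bp3 differed by -0.89 ± 0.25 in Dor-7g, a level 1.85-fold lower (SE; limma, unadjusted p = 0.0120, adjusted p = 0.202). In DOX-7g the difference was -0.88 ± 0.25, a level 1.84-fold lower (limma, unadjusted p = 0.0127, adjusted p = 0.255). Both comparisons share the D4-act-7g arrays. The intervals, -1.50 to -0.28 and -1.49 to -0.27, leave out 0 but are not adjusted for the number of genes. Relative to the median of all genes, which was 0.06 and -0.05 in these comparisons, the differences were -0.95 and -0.82. The Dor-7g value leaned on which array was used: without Dor-7g replicate 2 it was -1.21 and passed (limma, adjusted p = 0.0204) in a fit that called 1172 genes in all, and without replicate 1 it was -0.57 and did not (limma, adjusted p = 0.197). The DOX-7g difference passed with array weights (-0.88; limma, adjusted p = 0.0470). The adjusted p ranged from 0.0204 to 0.700 over the alternatives for Dor-7g and from 0.0470 to 0.851 for DOX-7g.

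Igf2bp1, a relative of Igf2bp3 that binds many of the same messages, has no probeset of its own in the annotation. The probeset that carries its symbol also carries Mir3063, a microRNA gene that lies inside Igf2bp1 in the RefSeq table, and its signal is given to neither gene here. It stood at 8.82 and 8.67 log2 units on the day 4 arrays, 6.73 and 6.93 in Dor-7g and 7.81 and 7.84 in DOX-7g. The 3 groups did not overlap, with day 4 highest, DOX-7g between and Dor-7g lowest. In a fit over every probeset of the table, added after the data were seen, this probeset fell in Dor-7g by 1.92 on the log2 scale (SE 0.17; limma, adjusted p = 0.0277), a level 3.78-fold lower. That fit called 0.346% of 41345 probesets between Dor-7g and D4-act-7g, 0.489% between DOX-7g and D4-act-7g and 0.590% between DOX-7g and Dor-7g. In DOX-7g the difference from D4-act-7g was -0.92 ± 0.17 and did not pass (SE; limma, adjusted p = 0.166), and neither did DOX-7g against Dor-7g at 0.99 ± 0.17 (limma, adjusted p = 0.137). The Dor-7g difference no longer passed without D4-act-7g replicate 1 or 2 (-1.84 and -1.99; limma, adjusted p = 0.222 and 0.172) and without either DOX-7g array (limma, adjusted p = 0.0922 for each), but held without Dor-7g replicate 1 (-1.81; limma, adjusted p = 0.0466) and without replicate 2 (-2.02; limma, adjusted p = 0.0156). Fits that altered only its SE and p-value left the Dor-7g difference at -1.92, and it did not pass in them. These used trend and robust options (limma, adjusted p = 0.0632), array weights (0.0533), the replicate number as a block (0.0859) and only the groups compared (0.0922). The last gave the same SE and p-value as leaving out either DOX-7g array and is no separate failure.

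Trim71, the mouse counterpart of the worm let-7 target lin-41, encodes a repressor of messenger RNAs that is needed for neural tube closure. Among the tested targets it alone had means above day 4 in both dormant groups, by small margins. It stood at 5.85 and 5.81 log2 units on the day 4 arrays, 6.23 and 6.04 in Dor-7g and 5.97 and 5.99 in DOX-7g, with no overlap between any pair of groups. The differences from D4-act-7g were 0.31 ± 0.17 in Dor-7g (SE; limma, adjusted p = 0.472) and 0.15 ± 0.17 in DOX-7g (limma, adjusted p = 0.885). The lower ends of the intervals, -0.11 and -0.27, correspond to 1.08-fold and 1.21-fold less Trim71 RNA than on day 4. They hold for the main fit only and are not adjusted for the number of genes.

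Arid3a, a transcription factor with a known role in the mouse trophectoderm, stood at 5.23 and 5.24 log2 units on the day 4 arrays, 5.05 and 4.75 in Dor-7g and 5.09 and 5.03 in DOX-7g. All dormant arrays lay below day 4, but Arid3a exceeded the olfactory line on only 2 of 6 arrays, so its differences may be compressed. These were -0.34 ± 0.18 in Dor-7g (SE; limma, adjusted p = 0.465) and -0.18 ± 0.18 in DOX-7g (limma, adjusted p = 0.869).

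Arid3b, its close relative, was read by 2 probesets that differed from day 4 in opposite directions. The brightest stood at 6.80 and 6.56 log2 units on the day 4 arrays, 6.47 and 6.08 in Dor-7g and 6.48 and 6.08 in DOX-7g, so that all dormant arrays lay below day 4. The second stood at 4.85 and 4.84 on the day 4 arrays, 5.44 and 5.13 in Dor-7g and 4.96 and 5.08 in DOX-7g, with all dormant arrays above day 4. On the brightest the differences were -0.40 ± 0.24 in each dormant group (SE; limma, adjusted p = 0.501 in Dor-7g and 0.673 in DOX-7g). On the second, tested over every probeset, they were 0.44 ± 0.18 in Dor-7g (limma, adjusted p = 0.492) and 0.18 ± 0.18 in DOX-7g (limma, adjusted p = 0.987). With both probesets averaged, the difference was 0.02 for Dor-7g and -0.11 for DOX-7g. The second probeset exceeded the olfactory line on 1 of 6 arrays.

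**Figure D2:**
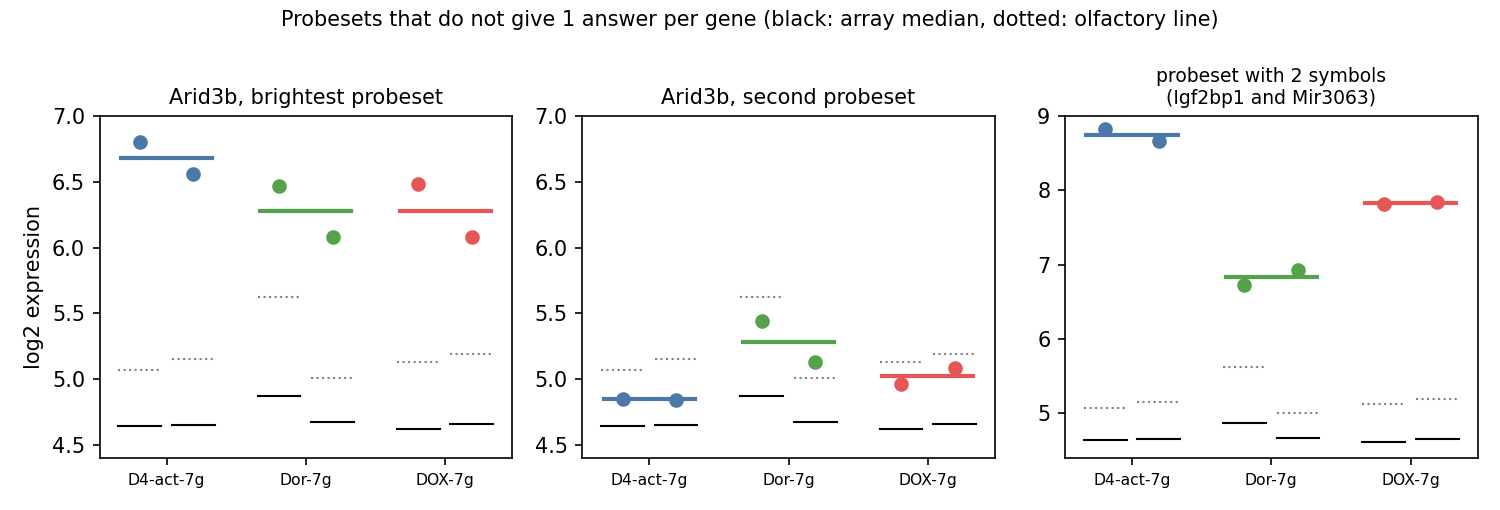
Log2 expression (vertical axes, with different ranges) on each array for both Arid3b probesets and for the probeset annotated to Igf2bp1 and Mir3063, with points for arrays, coloured bars for group means, black lines for array medians and dotted lines for the olfactory line. The Arid3b probesets differed from day 4 in opposite directions, and the probeset with 2 symbols had means of 8.75, 6.83 and 7.82.

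The counts of the oncofetal targets are given beside the shares of all genes. Between Dor-7g and D4-act-7g limma called 0 of 6 targets, beside 0.984% of all genes. At an unadjusted p under 0.05 it was 1 of 6, beside 14.3%, and the arrays did not overlap for 4 of 6, beside 45.8%. Between DOX-7g and D4-act-7g limma called 0 of 6, beside 0.956%. At an unadjusted p under 0.05 it was again 1 of 6, beside 11.0%, and the arrays did not overlap for 6 of 6, beside 49.7%. The single gene at that level was Igf2bp3 each time. The median difference of the 6 targets was -0.23 in Dor-7g, where that of all genes was 0.06, and -0.30 in DOX-7g, where that of all genes was -0.05.

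**Figure D3:**
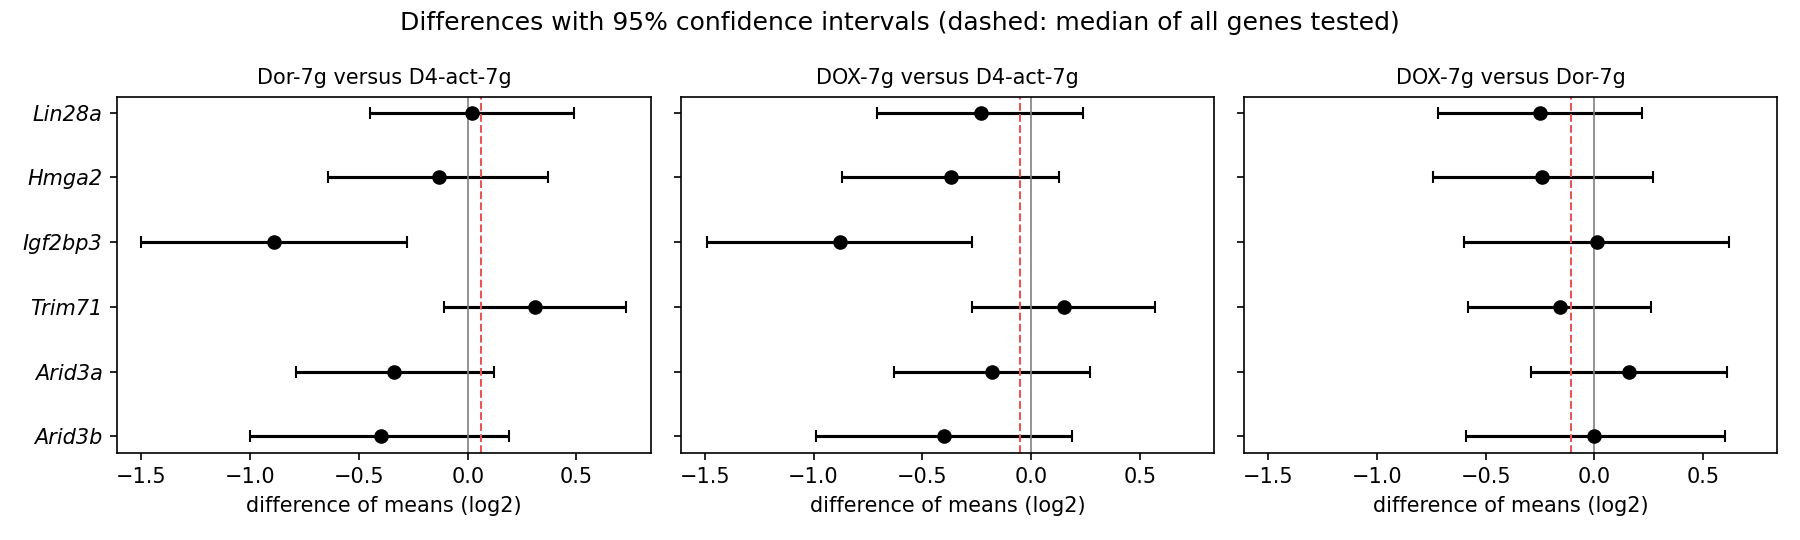
Difference of group means in log2 units (horizontal axis) for the 6 tested targets in the 3 comparisons, with bars for limma's 95% confidence intervals, a grey line at 0 and a dashed line at the median of all genes tested. Only the intervals of Igf2bp3 against D4-act-7g, -1.50 to -0.28 and -1.49 to -0.27, leave out 0.

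The 2 dormant states, one reached with DOX in culture and one in the mother, were also compared with each other. limma called 0 of 6 targets, beside 1.16% of all genes, and 0 of 6 had an unadjusted p under 0.05, beside 11.6%. The arrays did not overlap for 2 of 6, Lin28a and Trim71, beside 41.7%. Igf2bp3 differed by 0.01 ± 0.25 with an interval of -0.60 to 0.62 (SE; limma, adjusted p = 0.988), and Arid3b by 0.00 ± 0.24 (limma, adjusted p = 0.996). For Igf2bp3 that value sat between opposite readings, -0.31 without Dor-7g replicate 1 and 0.33 without replicate 2. Lin28a (-0.25 ± 0.19; limma, adjusted p = 0.613) and Hmga2 (-0.24 ± 0.20; limma, adjusted p = 0.653) had lower means in DOX-7g. Their intervals reached 1.65-fold and 1.67-fold lower levels, so equal levels were not shown.

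The let-7 genes themselves were read by 14 probesets of 12 family members, of which 10 were below the array median on all 6 arrays. The Mirlet7g probeset stood at 3.31 and 3.56 log2 units on the day 4 arrays, 3.50 and 3.59 in Dor-7g and 3.46 and 3.20 in DOX-7g, dim throughout and overlapping between DOX-7g and D4-act-7g. The sources used here do not say where the probes lie relative to the transgene, so this reading does not check the induction. Mirlet7a-2 differed most among them, with 4.21 and 4.54 on the day 4 arrays, 5.01 and 4.81 in Dor-7g and 3.78 and 3.71 in DOX-7g, and did not pass in any comparison over every probeset (DOX-7g against Dor-7g, -1.17 ± 0.19, SE; limma, adjusted p = 0.126). It exceeded the olfactory line on 0 of 6 arrays and was dim on the day 4 and DOX-7g arrays.

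No gene of the 4 related lists passed the threshold. Of 32 other genes described as let-7 targets 17 could be tested. Their medians were 0.05 in Dor-7g and -0.09 in DOX-7g against D4-act-7g, where those of all genes were 0.06 and -0.05, and -0.15 in DOX-7g against Dor-7g, where that of all genes was -0.11. An unadjusted p under 0.05 was reached by 3 of 17 in Dor-7g against D4-act-7g, beside 14.3% of all genes, by 0 of 17 in DOX-7g against D4-act-7g, beside 11.0%, and by 4 of 17 in DOX-7g against Dor-7g, beside 11.6%. In the same order the counts were 1, 2 and 2 of 12 for the genes of let-7 maturation and silencing, 2, 3 and 2 of 16 for the HMG and ARID relatives, and 1, 2 and 0 of 11 for the growth factor axis and IGF2BP clients. Cdc34, a ubiquitin-conjugating enzyme, stood at 12.88 and 12.85 log2 units on the day 4 arrays, 11.72 and 11.94 in Dor-7g and 12.75 and 12.53 in DOX-7g. It differed by -1.04 ± 0.18 in Dor-7g (SE; limma, adjusted p = 0.0839) and was 0.82 ± 0.18 higher in DOX-7g than in Dor-7g (limma, adjusted p = 0.178). Cdk6, a kinase of the G1 phase, differed by -0.85 ± 0.24 in Dor-7g (limma, adjusted p = 0.212). In DOX-7g the smallest p-values were those of Rdh10, a retinol dehydrogenase (-2.38 ± 1.25; limma, adjusted p = 0.599), whose DOX-7g arrays read 7.66 and 4.18, and the GTPase gene Nras (-0.50 ± 0.27; limma, adjusted p = 0.617). Ccnd1, a G1 cyclin, was 0.87 ± 0.28 higher in DOX-7g than in Dor-7g (limma, adjusted p = 0.334).

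The genes that make, tail and use let-7 gave 12 tested of 20, with no call and medians of 0.00 in Dor-7g and -0.02 in DOX-7g. Tarbp2, the partner of Dicer, stood at 9.91 and 9.83 on the day 4 arrays, 8.58 and 9.28 in Dor-7g and 9.27 and 9.04 in DOX-7g. Its differences were -0.94 ± 0.27 (SE; limma, adjusted p = 0.213) and -0.71 ± 0.27 (limma, adjusted p = 0.419). Xpo5, which exports microRNA precursors from the nucleus, differed by -0.60 ± 0.21 in DOX-7g (limma, adjusted p = 0.381), and Ago3, an Argonaute, by 0.67 ± 0.28 in Dor-7g (limma, adjusted p = 0.372). Ago3 stood at 4.27 and 5.06 on the day 4 arrays and exceeded the olfactory line on 1 of 6 arrays. Between the dormant groups Prkra, another Dicer partner, was 0.79 ± 0.30 higher in DOX-7g (limma, adjusted p = 0.415) and Msi1, an RNA-binding protein, differed by -0.46 ± 0.18 (limma, adjusted p = 0.421).

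Among 16 tested relatives of the HMGA and ARID3 genes none passed, with medians of -0.15 in Dor-7g and -0.29 in DOX-7g. Hmgb1, an abundant chromatin protein with many near-identical pseudogene copies that its probes may share, stood at 11.84 and 11.65 on the day 4 arrays, 10.39 and 10.73 in Dor-7g and 11.09 and 11.34 in DOX-7g, and differed by -1.18 ± 0.21 in Dor-7g (SE; limma, adjusted p = 0.0837) and by 0.65 ± 0.21 in DOX-7g against Dor-7g (limma, adjusted p = 0.335). Hmgn5, a nucleosome-binding protein, differed by -1.07 ± 0.24 in Dor-7g (limma, adjusted p = 0.139) and -0.66 ± 0.24 in DOX-7g (limma, adjusted p = 0.404). Arid2, a chromatin remodelling subunit, differed by -0.61 ± 0.18 in DOX-7g (limma, adjusted p = 0.270), and Arid1b, a subunit of a related complex, by -0.73 ± 0.24 in DOX-7g against Dor-7g (limma, adjusted p = 0.342).

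Of 16 genes of the insulin-like growth factor axis and of messages bound by IGF2BP proteins, 11 were tested and none passed, with medians of 0.17 in Dor-7g and 0.05 in DOX-7g. Btrc, a ubiquitin ligase subunit whose message is bound by IGF2BP1, stood at 7.71 and 7.47 on the day 4 arrays, 6.16 and 6.73 in Dor-7g and 6.19 and 6.60 in DOX-7g. Its differences were -1.15 ± 0.27 (SE; limma, adjusted p = 0.151) and -1.19 ± 0.27 (limma, adjusted p = 0.167), with all dormant arrays below day 4. Igf1, the growth factor, stood at 4.45 and 4.38 on the day 4 arrays, which is dim, 4.90 and 5.88 in Dor-7g and 5.82 and 6.80 in DOX-7g, a difference of 1.90 ± 0.44 in DOX-7g (limma, adjusted p = 0.174) and of 0.92 ± 0.44 between DOX-7g and Dor-7g (limma, adjusted p = 0.488). Igfbp3, a binding protein of these factors, differed by 0.50 ± 0.22 in Dor-7g (limma, adjusted p = 0.383) and by -0.45 ± 0.22 in DOX-7g against Dor-7g (limma, adjusted p = 0.498). Its level exceeded the olfactory line on 1 of 6 arrays.

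**Figure D4:**
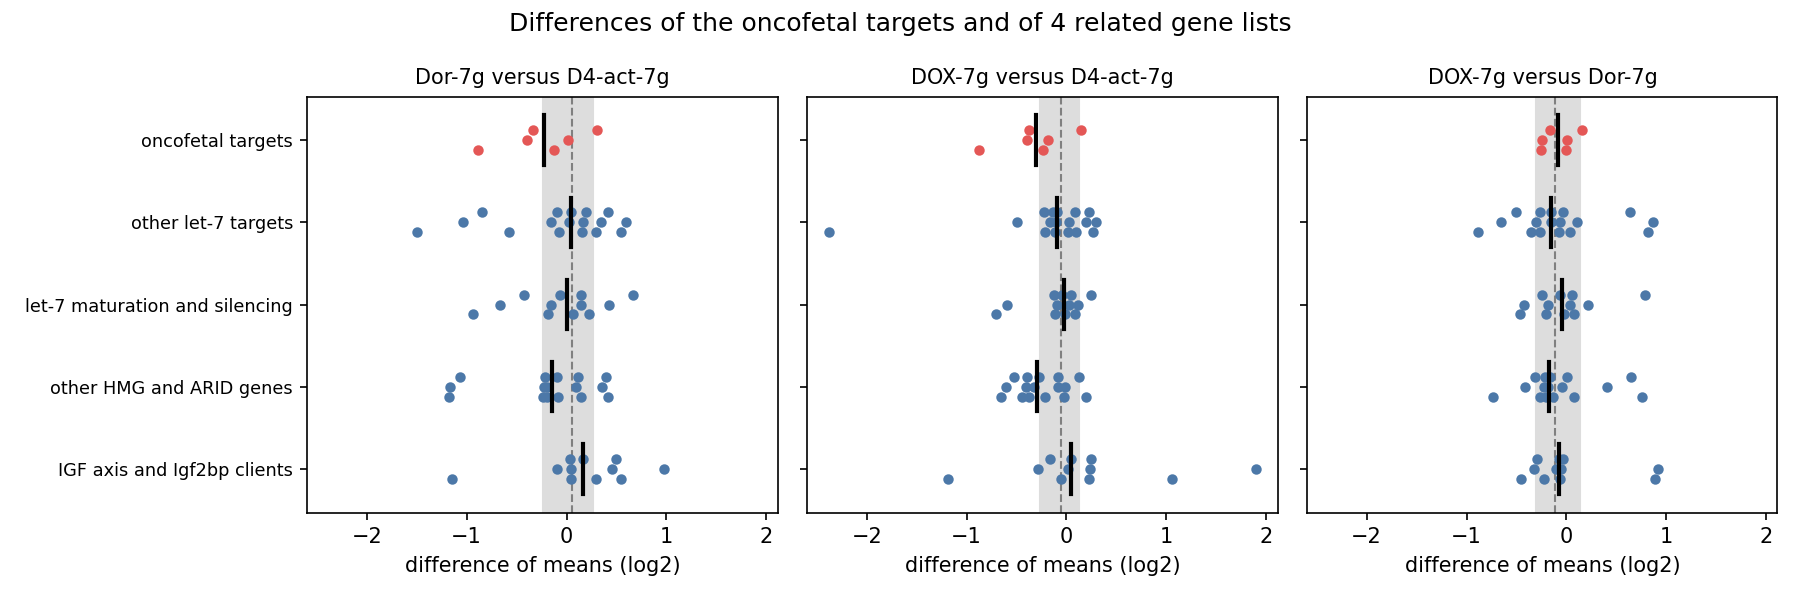
Difference of group means in log2 units (horizontal axis) for each tested oncofetal target and each tested gene of 4 related lists, with points for genes, black bars for list medians, a grey band for the middle quartiles of all genes and a dashed line for their median. The medians of the oncofetal targets were -0.23, -0.30 and -0.08 from left to right, and no gene shown passed the threshold.

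The genes whose pattern was most like that of Igf2bp3 over the 6 arrays were looked up. Likeness was measured as the root mean square difference between log2 values centred on each gene's mean, over 12681 named genes. The closest were Coa5, an assembly factor of cytochrome oxidase (0.0875 log2 units), Cacul1, a cullin-related cell cycle gene (0.0932), and Zfp706, a zinc finger gene (0.101). Cacul1 stood at 9.35 and 9.33 on the day 4 arrays, 8.06 and 8.51 in Dor-7g and 8.40 and 8.46 in DOX-7g. None of the 3 passed the threshold in any comparison. For Arid3b, which had the next widest range of group means, the closest were Med17, of the Mediator complex (0.0709), the ubiquitin ligase gene Ubr3 (0.0730) and Bcl11b, a zinc finger factor (0.0769), and each of them exceeded the olfactory line on 1 of 6 arrays.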

How the data were processed

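The deposited table holds log2 expression values, 1 per probeset and array (41345 probesets, 6 arrays), between 1.52 and 14.18. The submitters' processing notes name Partek 6.6 and RMA without saying what each did; RMA corrects background, normalizes and summarizes probes. Folds of dim genes may be compressed by it. Per the labels' protocols, RNA was released by heating 10 blastocysts in 10 µl of water for 5 minutes, so input was low. No genome build was stated by the sources used here. The number of arrays limits the precision.

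Groups and replicate numbers came from the titles. Symbols came from the platform's annotation, updated by Entrez identifier through a RefSeq table of GRCm38.p6 (1 symbol for 23521 probesets, several for 1814, and 16010 unnamed here; 193 identifiers found no match). The filter asked for a level no lower than the array median on at least 2 of 6 arrays. The fit of all 6 arrays used limma 3.58.1 (R 4.3.3), group means and eBayes (3 residual and 2.81 prior degrees of freedom), p-values were adjusted by Benjamini-Hochberg within each comparison, and the code was tested on simulated data. Members and lists were chosen with earlier results of these data known. All members were named, with every called gene of the other 4 lists or else those with the smallest p-values (2 per comparison), and the let-7 probesets and the 3 genes most like each of the 2 tested members with the widest range of group means. Hmga2-ps1, the probeset with 2 symbols and the let-7 probeset and single markers picked for their values were named after their values were seen.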

Additional observations from a re-analysis of the deposited data

How the results depend on the processing

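The 3 comparisons were repeated with another normalization, other filters, the mean of probesets, trend and robust options, array weights, a replicate block, only the groups compared and without each array, and, chosen after the data were seen, with a filter at the olfactory line and over every probeset. Of 306 recomputed differences of the targets, 293 kept direction and side of the threshold, 11 changed sign and 2, both of Igf2bp3, newly passed. Many of these alternatives altered only the SE and p-value and left the difference of means as it was. These were the other filters, trend and robust options, array weights, the replicate block and only the groups compared. The fits over every probeset and without an array of the group not compared did the same. The count of 293 therefore does not measure stability. For Lin28a in Dor-7g against D4-act-7g, 0.02 became 0.00 after a second quantile normalization, -0.11 after centring and -0.06 to 0.10 without single arrays. For Arid3b the mean of probesets turned -0.40 into 0.02 in Dor-7g against D4-act-7g and 0.00 into -0.13 in DOX-7g against Dor-7g, and the latter was -0.20 to 0.21 without single arrays (-0.19 without Dor-7g replicate 2). For Hmga2 the range without single arrays was -0.31 to 0.05 in the first of these comparisons, and for Igf2bp3 in DOX-7g against Dor-7g it was -0.31 to 0.33, with -0.09 after the second normalization. Centring moved the median of all genes by -0.13 in Dor-7g against D4-act-7g and by 0.13 in DOX-7g against Dor-7g.

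The count of called targets was 0 to 1 without single arrays in Dor-7g against D4-act-7g, 0 to 0 in the other comparisons, and 1 with array weights in DOX-7g against D4-act-7g. Over all genes, limma called 138 in Dor-7g against D4-act-7g (11 to 1172 without single arrays, from D4-act-7g replicate 2 to Dor-7g replicate 2, and 79 with array weights, 82 with the replicate block and 86 with only the groups compared), 134 in DOX-7g against D4-act-7g (43 to 296, from D4-act-7g replicate 2 to either Dor-7g array, and 68 with the filter on all 6 arrays, 461 with array weights and 296 with only the groups compared) and 163 in DOX-7g against Dor-7g (67 to 880, from DOX-7g replicate 2 to Dor-7g replicate 2, and 81, 104 and 86). Where a group was left with 1 array, it was assumed to vary like the others. Over genes, the deviations of same-numbered arrays correlated at -0.02, -0.01 and -0.14. With 1 deviation per group these values cannot show whether the numbers paired the samples. No target passed with the replicate block (Igf2bp3 -0.89 and -0.88; limma, adjusted p = 0.276 and 0.352). The causes of these shifts were not tested.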
